A study of Mus musculus with 6 samples.

Results

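The genes described here are 10 regulators of multiciliated and ependymal cells and of the centriole amplification that precedes multiciliation: Foxj1, Mcidas, Gmnc, Gmnn, Ccno, Deup1, Myb, Rfx2, Rfx3 and Rfx4. They were chosen by name from 35274 rows of one table of transcript levels, and each name matched 1 row. The levels came from dissected dentate neuroepithelium, the stretch of hippocampal ventricular wall that gives rise to the dentate gyrus, of mice labelled embryonic day 14. Mice were wild type, SOX11f/+ (1 floxed allele of Sox11, called haplodeficient in the labels) or SOX11f/f (2 floxed alleles, called homodeficient), with 2 libraries each. The sources used here name no Cre driver, strain or litter, and do not say whether embryos were pooled or whether replicates came from different embryos, so a p-value here rests on variation among libraries that may be only technical.

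Cells with many motile cilia line the brain ventricles as ependyma and cover the choroid plexus, where they move cerebrospinal fluid. Their differentiation is started by the geminin relatives GEMC1 (gene Gmnc) and multicilin (gene Mcidas), which act with E2F factors, while geminin itself (gene Gmnn) restrains DNA replication licensing and opposes them. The programme then turns on centriole amplification, in which DEUP1 builds deuterosomes and cyclin O (gene Ccno) is required. FOXJ1 and RFX factors activate the genes of the motile axoneme. In mouse forebrain, radial glia are specified as future ependymal cells before birth and grow their cilia after birth.

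Values are TPM, transcripts scaled to a fixed total per library, an abundance corrected for transcript length that allows levels of different genes to be set side by side. TPM keeps no read depth, so the counting error behind a low value is unknown and no detection floor was computed. Differences between genotypes are on the log2(TPM + 1) scale, which understates the change of genes near 0, with limma's SE. A gene passed when its limma p, adjusted by Benjamini-Hochberg over the 14518 genes averaging 1 TPM or more, lay under 0.05. Between 2 and 2 libraries an exact permutation test of a single value cannot give a two-sided p under 0.33.

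The targeted gene followed the labels. Sox11 stood at 191.93 and 130.18 TPM in the wild type pair, 56.1 and 50.07 TPM in SOX11f/+ and 5.23 and 5.06 TPM in SOX11f/f libraries. Of genes of dorsal forebrain and dentate lineage, Prox1, Emx2 and Lhx2 were present in all libraries but lower in each floxed one, without passing the threshold. Prox1, a gene of dentate granule cells, stood at 174.82 and 110.48 TPM in the wild type pair and between 54.28 and 82.01 TPM in floxed libraries (differences -1.05 and -0.88, limma adjusted p = 0.239 and 0.165). Emx2 went from 109.93 and 76.21 TPM to between 58.76 and 65.09 TPM (limma adjusted p = 0.279 and 0.191), and Lhx2 from 304.32 and 239.12 TPM to between 222.85 and 236.06 TPM. Not all such genes were lower. Pax6 stood at 28.87 and 20.07 TPM in the wild type pair and between 21.31 and 26.58 TPM in floxed libraries. Neurod6 stood at 289.88 and 490.73 TPM in the wild type pair and between 343.39 and 434.57 TPM in floxed libraries. Whether cell makeup differed, and its part in the regulators' levels, was not tested. Gfap, a filament gene of mature astrocytes, was at 303.91 and 268.11 TPM in wild type and between 334.79 and 576.27 TPM in floxed libraries, which is high for tissue labelled embryonic day 14, and the labelled age was not checked in another way. SOX11f/+ replicate 1 and SOX11f/f replicate 1 stood apart by choroid plexus RNA: Ttr, its main secreted product, was at 11259 and 6420.82 TPM there, at 184.24 TPM in SOX11f/f replicate 2, and between 2.04 and 4.44 TPM in the other 3 libraries. Since these are bulk samples, more cells of a type and more RNA per cell cannot be told apart.

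In both floxed genotypes 7 of the 10 regulators stood above both wild type libraries in every floxed library with log2 differences of about 1 or more, and the 7 did so in one order of libraries. These 7 are Foxj1, Deup1, Ccno, Mcidas, Gmnc, Rfx2 and Myb. Rfx4 was slightly higher, Rfx3 slightly lower, and Gmnn lower in SOX11f/f libraries. None of the 10 passed the threshold in any of the 3 comparisons, and Foxj1 came nearest (limma adjusted p = 0.0682 for SOX11f/f against wild type). In SOX11f/+ against wild type, 0 of 10 members passed, where 0.0344% of all genes tested did, and 5 members had an unadjusted limma p under 0.05 and a higher level, where 6.42% of genes did. None had such a p and a lower level (7.63% of genes). The values of SOX11f/+ and wild type libraries were fully apart for 8 members with higher levels (17.1% of genes) and 1 with a lower level (28.9% of genes). In SOX11f/f against wild type, 0 members passed (0.0413% of genes), 5 were higher at an unadjusted p under 0.05 (8.35% of genes) and 1 was lower (9.8% of genes). There, values were fully apart for 8 members with higher levels (23.6% of genes) and 2 with lower levels (30.7% of genes). The median difference of the 10 members was 1.18 in SOX11f/+ and 1.06 in SOX11f/f, where the median of all genes tested was -0.06 and -0.04. All 10 members entered the test, but Gmnc, Mcidas, Ccno and Deup1 had wild type means under 1 TPM and did so only through floxed libraries, so counts and medians over the members lean toward higher values by selection.

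**Figure D1:**
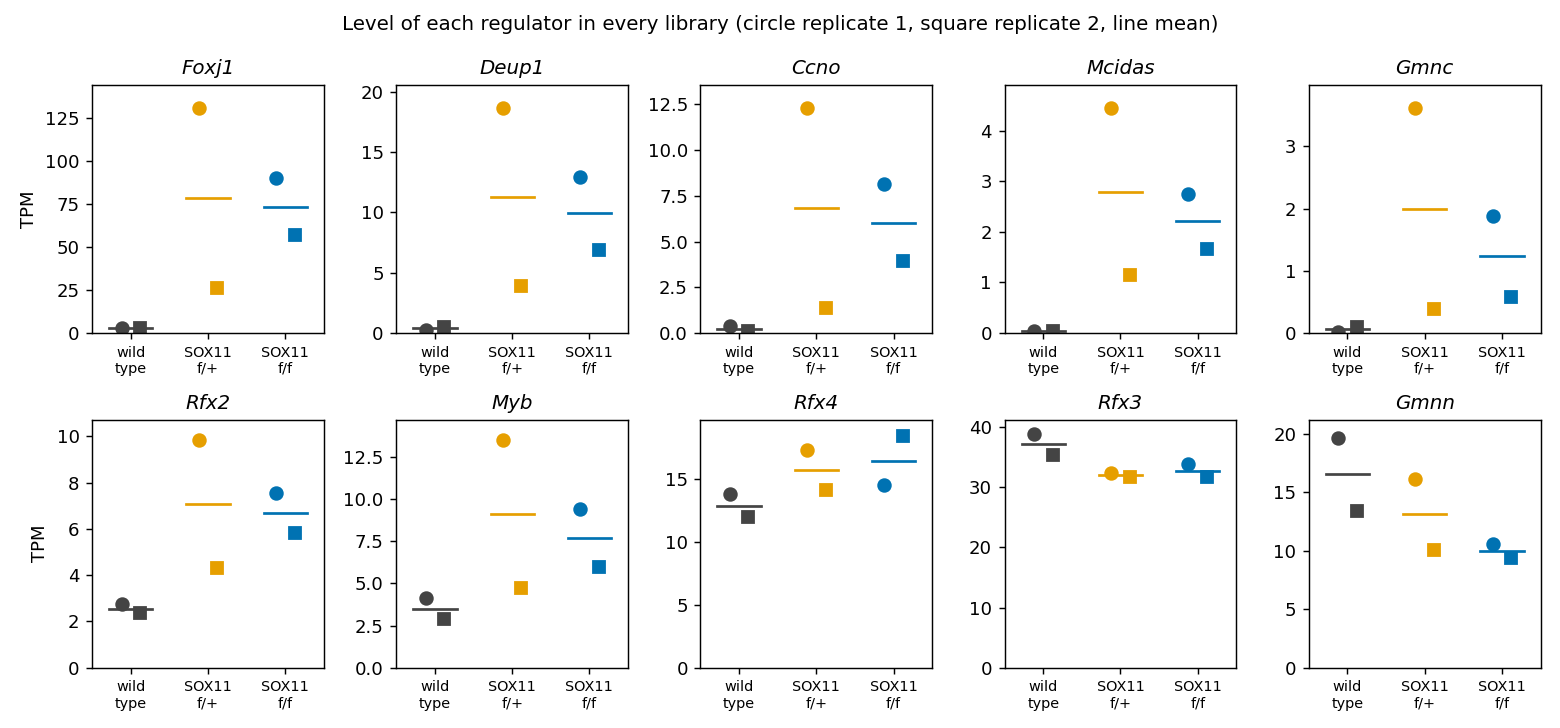
Level of each of the 10 regulators in TPM (vertical axis, from 0, own scale per gene) in the 2 libraries of wild type, SOX11f/+ and SOX11f/f tissue (circles replicate 1, squares replicate 2, lines group means). Foxj1 lies at 3 and 3.14 TPM in wild type, against values between 26.41 and 130.98 TPM in floxed libraries, while Rfx3 stays between 31.61 and 38.84 TPM throughout.

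Among the geminin family, Gmnc, which encodes GEMC1 at the head of the pathway, was the member with the lowest mean over the 6 libraries. Gmnc stood at 0.02 and 0.1 TPM in the wild type pair, 3.62 and 0.38 TPM in SOX11f/+ and 1.89 and 0.58 TPM in SOX11f/f libraries. All 4 floxed libraries lay above both wild type ones, but the SOX11f/+ libraries differed 9.53-fold from each other. The difference from wild type was 1.25 (95% interval -0.16 to 2.67, limma adjusted p = 0.397) in SOX11f/+ and 1.01 (95% interval -0.40 to 2.43, limma adjusted p = 0.395) in SOX11f/f.

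Mcidas, the gene of multicilin, had the same level of 0.04 TPM in each wild type library, near the 0.01 TPM step of the table. It stood at 4.45 and 1.14 TPM in SOX11f/+ and at 2.74 and 1.67 TPM in SOX11f/f libraries. Every floxed library exceeded 1 TPM and the floxed genotypes overlapped. The difference from wild type was 1.72 (SE 0.46, limma adjusted p = 0.264) in SOX11f/+ and 1.6 (SE 0.46, limma adjusted p = 0.164) in SOX11f/f.

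Gmnn, the gene of geminin, went the other way. It stood at 19.69 and 13.45 TPM in the wild type pair, 16.15 and 10.1 TPM in SOX11f/+ and 10.59 and 9.36 TPM in SOX11f/f libraries. Both SOX11f/f libraries lay below both wild type ones, whereas the SOX11f/+ libraries overlapped with wild type. The SOX11f/f difference of -0.66 (SE 0.26) did not pass (limma adjusted p = 0.262) and was -0.40 without wild type replicate 1. Genes of dividing cells were lower in SOX11f/f libraries too. Mki67, a proliferation marker, stood at 38.86 and 21.53 TPM in the wild type pair, 23.44 and 20.52 TPM in SOX11f/+ and 16.86 and 18.5 TPM in SOX11f/f libraries. Top2a, the topoisomerase of dividing cells, stood at 90.79 and 57.53 TPM in the wild type pair, 70.19 and 50.16 TPM in SOX11f/+ and 43.41 and 48.6 TPM in SOX11f/f libraries. The summed level of 20 fixed genes of proliferating cells ran from 430.8 to 714 TPM in wild type, from 391.9 to 566.6 TPM in SOX11f/+ and from 359 to 374.6 TPM in SOX11f/f libraries, none of the 20 being at 0 in any library. All 20 were below wild type in SOX11f/f tissue, 10 of them with an unadjusted limma p under 0.05 and none passing. Over all genes tested, 9.8% were lower at such a p in that comparison. The part of dividing cells in the Gmnn values was not tested.

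The centriole amplification genes were low in wild type and higher in each floxed library. Deup1, whose protein scaffolds the deuterosomes from which most new centrioles grow, stood at 0.28 and 0.48 TPM in the wild type pair, 18.68 and 3.89 TPM in SOX11f/+ and 12.92 and 6.92 TPM in SOX11f/f libraries. Each floxed library was at least 8 times the higher wild type value. The difference was 2.83 (SE 0.62, limma adjusted p = 0.217) in SOX11f/+ and 2.93 (SE 0.62, limma adjusted p = 0.11) in SOX11f/f.

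Ccno, the gene of cyclin O, stood at 0.38 and 0.09 TPM in the wild type pair, 12.3 and 1.35 TPM in SOX11f/+ and 8.16 and 3.91 TPM in SOX11f/f libraries. The SOX11f/+ libraries differed 9.11-fold from each other, and the SOX11f/f libraries lay between them. The difference was 2.19 (SE 0.76, limma adjusted p = 0.317) in SOX11f/+ and 2.45 (SE 0.76, limma adjusted p = 0.18) in SOX11f/f.

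Ccno and Mcidas are neighbours. On GRCm38, Ccno spans chr13:112987802-112990777 in 2 exonic blocks and Mcidas chr13:112993845-113000394 in 7, both on the plus strand, with start sites 6043 bases apart. The next gene on that strand is Cdc20b, a relative of the mitotic activator Cdc20 that starts 47309 bases from Ccno and whose introns hold the miR-449 genes, not analysed here. Cdc20b stood at 0.06 and 0.12 TPM in the wild type pair, 8.85 and 1.01 TPM in SOX11f/+ and 6.46 and 2.13 TPM in SOX11f/f libraries, the same order of libraries as Ccno and Mcidas. Cdc20b did not pass either (difference 2.15, SE 0.75, limma adjusted p = 0.214 in SOX11f/f against wild type). An antisense gene overlaps exons of Cdc20b, and how the counting treated strand is not stated, so their reads cannot be told apart.

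The other protein-coding neighbours within 100000 bases of the pair were different. Dhx29, a helicase gene upstream of Ccno, stood at 23 and 20.83 TPM in the wild type pair. It lay slightly lower, between 18.72 and 19.69 TPM, in floxed libraries (limma adjusted p = 0.488 in SOX11f/+ and 0.522 in SOX11f/f). Mtrex (Skiv2l2 in the table), an RNA helicase gene beyond Dhx29, lay between 42.29 and 54.19 TPM in all 6 libraries. Gpx8, a peroxidase gene inside Cdc20b on the other strand, was already at 36.93 and 27.37 TPM in wild type. It stood at 54.22 and 33.4 TPM in SOX11f/+ libraries, which overlapped with wild type. Both SOX11f/f libraries, at 44.06 and 50.65 TPM, lay above both wild type ones (difference 0.556, SE 0.245, limma adjusted p = 0.293). Gzma, a granzyme gene of lymphocytes, stayed at or under 0.22 TPM.

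**Figure D2:**
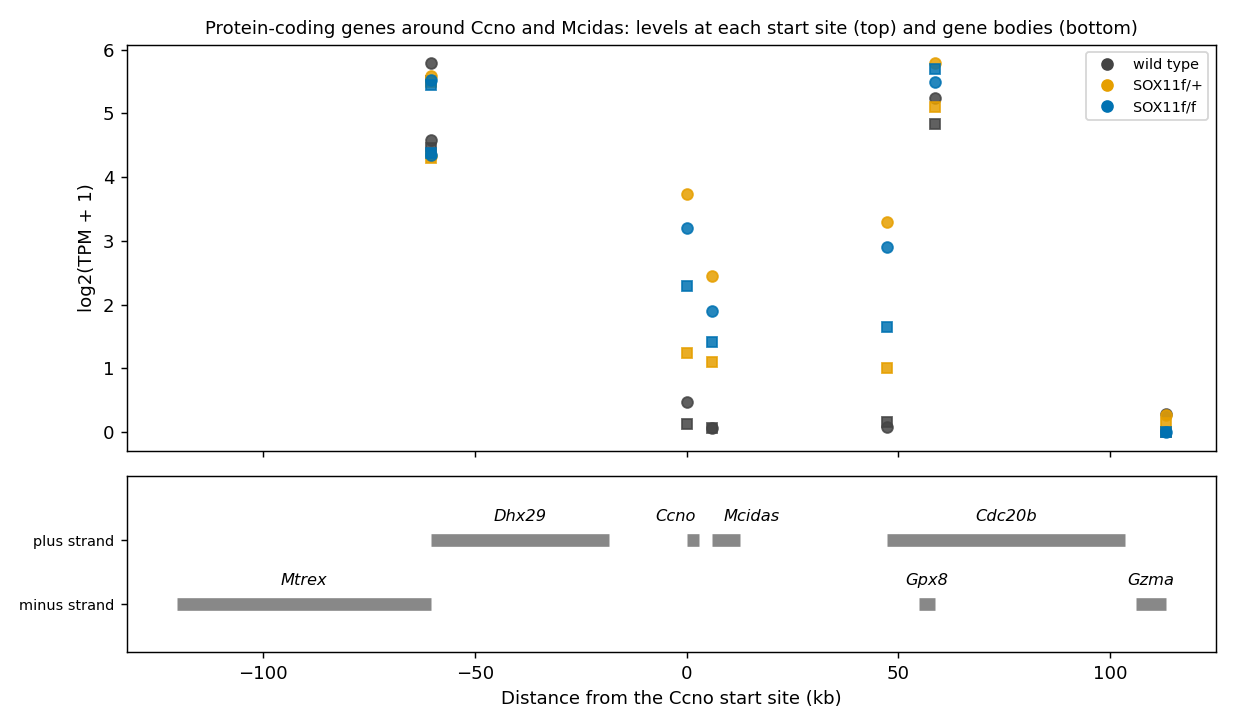
Protein-coding genes within 100000 bases of Ccno and Mcidas. The horizontal axis gives the distance from the Ccno start site in kb. The upper panel shows log2(TPM + 1) of each library at the start site of its gene (grey wild type, orange SOX11f/+, blue SOX11f/f, circles replicate 1, squares replicate 2) and the lower panel the gene bodies by strand. Floxed libraries stand above wild type at Ccno, Mcidas and Cdc20b. At Dhx29, whose start site nearly coincides with that of Mtrex, floxed libraries lie slightly below wild type. Its values are between 18.72 and 19.69 TPM there, against 23 and 20.83 TPM in wild type.

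Promoters are shown for the 4 members that stood higher in floxed tissue and share a run of letters known as the half-site of the X-box, the element that RFX factors bind. The windows come from the RefSeq promoter table on GRCm38.p6, each with 250 bases before and 50 after a start site, and are printed 5′ to 3′ on the strand of the gene. Capitals mark GTTGCC or its reverse complement GGCAAC. The windows are chr13:112987552-112987851 for Ccno and chr13:112993618-112993917 for Mcidas, both plus strand, and chr9:15627797-15628096 for Deup1 and chr17:56830959-56831258 for Rfx2, both minus strand.
Ccno: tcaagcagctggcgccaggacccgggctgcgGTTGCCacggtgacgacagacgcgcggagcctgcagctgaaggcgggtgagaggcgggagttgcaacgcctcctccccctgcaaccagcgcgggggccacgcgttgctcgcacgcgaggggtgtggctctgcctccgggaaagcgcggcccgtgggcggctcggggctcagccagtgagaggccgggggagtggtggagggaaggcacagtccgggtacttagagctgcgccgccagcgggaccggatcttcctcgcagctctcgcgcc
Mcidas: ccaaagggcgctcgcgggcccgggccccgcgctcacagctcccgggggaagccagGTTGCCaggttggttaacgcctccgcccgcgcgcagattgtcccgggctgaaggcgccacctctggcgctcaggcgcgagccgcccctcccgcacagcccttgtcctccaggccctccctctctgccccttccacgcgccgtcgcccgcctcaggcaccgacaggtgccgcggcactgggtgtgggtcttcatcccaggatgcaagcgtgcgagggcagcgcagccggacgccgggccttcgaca
Deup1: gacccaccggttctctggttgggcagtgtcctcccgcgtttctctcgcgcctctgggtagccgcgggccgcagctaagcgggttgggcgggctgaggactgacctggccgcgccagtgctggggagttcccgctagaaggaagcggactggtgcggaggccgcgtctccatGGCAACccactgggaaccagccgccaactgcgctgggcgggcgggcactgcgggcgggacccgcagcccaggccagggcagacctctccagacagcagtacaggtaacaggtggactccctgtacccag
Rfx2: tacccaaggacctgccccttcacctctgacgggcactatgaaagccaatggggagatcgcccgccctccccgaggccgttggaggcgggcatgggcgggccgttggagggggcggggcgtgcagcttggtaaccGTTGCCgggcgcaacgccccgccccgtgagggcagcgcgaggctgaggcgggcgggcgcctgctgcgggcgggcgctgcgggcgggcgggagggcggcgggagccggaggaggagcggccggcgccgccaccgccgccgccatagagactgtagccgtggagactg
The first base of the half-site lay 219 bases before the start site in Ccno, 195 in Mcidas, 79 in Deup1 and 116 in Rfx2. Deup1 has a further window, chr9:15628257-15628556, that held no half-site. The end of neither Deup1 window was found in a transcript of the gene, so the match to the gene was not checked for Deup1.

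Of the 10 members, 8 had a window in the table, Foxj1 and Gmnn being unmatched, and 5 of these 8 held the half-site on either strand. The fifth was Rfx3, with the half-site 31 bases after its start, and its level was not higher in floxed tissue. Over the whole table, 12.5% of 32851 windows and 14.1% of 27025 genes held it. Among fixed lists it was found in 24 of 50 matched motile cilia genes (48.0%), 11 of 25 intraflagellar transport genes (44.0%) and 5 of 13 other regulators of multiciliated cells (38.5%). Lists of other cell types and processes ranged from 0 of 8 astrocyte and 0 of 9 microglia genes to 30.8% of radial glia, 30% of blood, 27.3% of ependymal and 26.7% of choroid plexus genes, with 11.8% of proliferating cell, 15% of licensing, 18.2% of neuron and 21.9% of centriole genes between. A forkhead motif, TGTTTAC on either strand, was found in 1 member, Myb (3.65% of all windows), and an E2F motif, TTCCCGC on either strand, in 1, Deup1 (4.6% of all windows). These motifs share no overlap with the half-site in the member windows. A match describes letters in this window and says nothing of binding.

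Foxj1, the forkhead gene that drives motile cilium assembly, had the largest differences of the 10 from wild type. It lies on the minus strand of chromosome 11 (chr11:116330704-116335399, 3 exonic blocks). Foxj1 stood at 3 and 3.14 TPM in the wild type pair, 130.98 and 26.41 TPM in SOX11f/+ and 90 and 56.74 TPM in SOX11f/f libraries. The wild type pair was tight, every floxed library lay at 8.6 times the wild type mean or more, and the 2 SOX11f/+ libraries lay on either side of the SOX11f/f pair. The difference was 3.89 (SE 0.65, 95% interval 2.33 to 5.45, limma adjusted p = 0.144) in SOX11f/+ and 4.15 (SE 0.65, 95% interval 2.59 to 5.71, limma adjusted p = 0.0682) in SOX11f/f. Foxj1 passed in SOX11f/f against wild type without SOX11f/+ replicate 1 (limma adjusted p = 0.0013) or replicate 2 (0.00109), with the replicate block (0.038) and with a pseudocount of 0.1 (0.0424). Its limma adjusted p over the 15 alternatives ran from 8.29e-05 to 0.468 there, and from 0.00109 to 0.777 in SOX11f/+, where it passed without SOX11f/+ replicate 1 (difference 2.75) or replicate 2 (5.02), the one left being assumed to vary like the other genotypes.

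The RFX genes, winged-helix factors that work with FOXJ1 on cilia genes, had unlike values. Rfx2 stood at 2.75 and 2.36 TPM in the wild type pair, 9.83 and 4.33 TPM in SOX11f/+ and 7.56 and 5.84 TPM in SOX11f/f libraries, so all 4 floxed libraries lay above wild type. Its difference was 1.1 (SE 0.35, limma adjusted p = 0.301) in SOX11f/+ and 1.11 (SE 0.35, limma adjusted p = 0.181) in SOX11f/f. Rfx3, known for its part in cilia of many cell types, stood at 38.84 and 35.26 TPM in the wild type pair, 32.28 and 31.62 TPM in SOX11f/+ and 33.77 and 31.61 TPM in SOX11f/f libraries. Floxed libraries lay just below wild type, by 0.21 (SE 0.11, limma adjusted p = 0.442) and 0.18 (SE 0.11, limma adjusted p = 0.428) on the log2 scale.

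Rfx4, a brain factor of radial glia and ventricular cells, stood at 13.83 and 11.99 TPM in the wild type pair, 17.31 and 14.16 TPM in SOX11f/+ and 14.52 and 18.49 TPM in SOX11f/f libraries. The lowest floxed value was close to the highest wild type value, and neither difference passed (0.26 and 0.33, SE 0.18, limma adjusted p = 0.531 and 0.378). Rfx1, a ubiquitous relative that is not among the 10, lay between 8.24 and 13.87 TPM.

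Myb, a factor that acts in early multiciliated cells and is better known in blood and other dividing progenitors, stood at 4.12 and 2.89 TPM in the wild type pair, 13.47 and 4.75 TPM in SOX11f/+ and 9.38 and 5.96 TPM in SOX11f/f libraries. SOX11f/+ replicate 2 was only just above the higher wild type library. Its differences of 1.03 and 0.93 (SE 0.44 each, 95% intervals -0.03 to 2.09 and -0.13 to 1.99) did not pass (limma adjusted p = 0.362 and 0.32). The summed level of 14 blood and erythroid genes was 778.8 and 299.3 TPM in wild type, 602.4 and 408 TPM in SOX11f/+ and 507.9 and 532.7 TPM in SOX11f/f libraries, with 2 to 4 of the 14 at 0 in each. Most of the sum came from globin genes, Hba-a1 and Hba-a2 standing at 343.33 and 330.3 TPM in wild type replicate 1. Of 8 tested, 5 had higher levels than wild type in SOX11f/+ and 8 in SOX11f/f, and none passed. Of the 8, 1 (Ptprc) had a wild type mean under 1 TPM and was tested only through floxed libraries. The part of blood cells in the Myb values was not tested. An antisense gene overlaps exons of Myb, and how the counting treated strand is not stated, so reads of the 2 genes cannot be told apart.

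**Figure D3:**
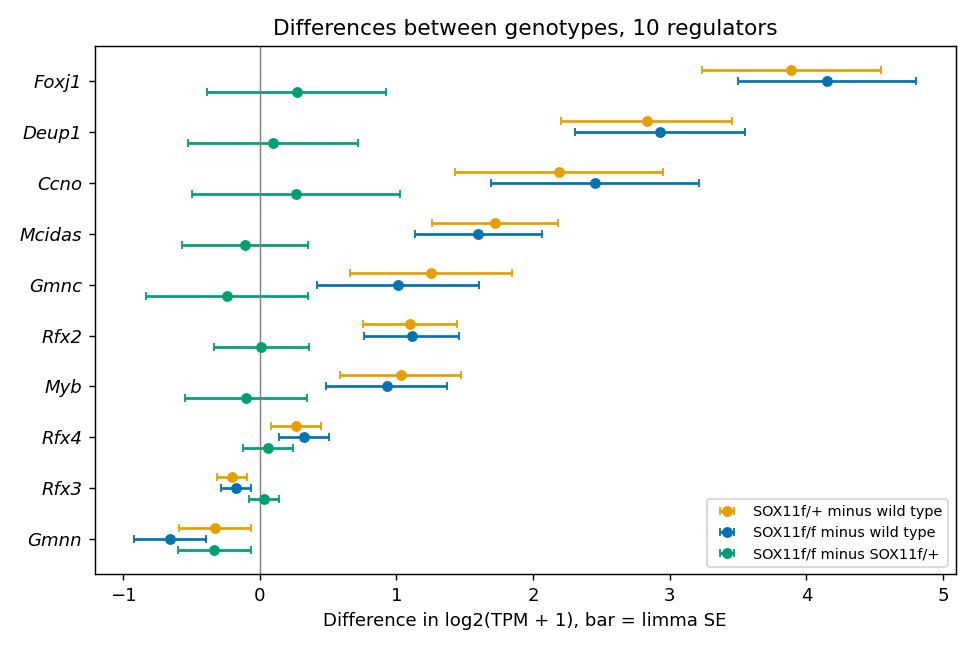
Difference in log2(TPM + 1) between genotypes for the 10 regulators (points) with limma's SE (bars), from all 6 libraries. Foxj1 is at 3.89 and 4.15 against wild type, 7 regulators lie at 0.93 or above in both comparisons with wild type (95% intervals of Gmnc and Myb include 0), and all 10 values of SOX11f/f minus SOX11f/+ lie within 0.34 of 0.

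By level, the order of the genes was another in floxed tissue. In wild type, Rfx3 was highest, followed by Gmnn and Rfx4, whose libraries overlapped, then Myb and Foxj1, which also overlapped, then Rfx2, and last Deup1, Ccno, Gmnc and Mcidas, all under 0.5 TPM. In SOX11f/+ replicate 1 and in both SOX11f/f libraries Foxj1 was the highest of the 10. In SOX11f/+ replicate 2 it came second to Rfx3, at 26.41 against 31.62 TPM. Mcidas and Gmnc stayed the lowest of the 10 in each floxed library.

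Between the floxed genotypes the regulators had close means and wide errors. In SOX11f/f against SOX11f/+, 0 of 10 members passed (0.0138% of genes), and 0 had an unadjusted limma p under 0.05 in either direction, where 1.14% of genes were higher and 0.902% lower. Libraries overlapped for all 10. The intervals were wide: the difference was 0.27 for Foxj1 (95% interval -1.29 to 1.83), 0.10 for Deup1 (-1.39 to 1.58) and -0.33 for Gmnn (-0.96 to 0.30), so more than 2-fold changes in either direction remain within them for Foxj1 and Deup1. For Rfx3 the interval was narrow, from -0.23 to 0.30 around 0.03.

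The 7 higher regulators shared one order of libraries, noticed after the values were seen: SOX11f/+ replicate 1 was highest, then SOX11f/f replicate 1, SOX11f/f replicate 2, SOX11f/+ replicate 2 and both wild type libraries. Of all genes tested, 495 (3.41%) had it. Ttr had this order too. The summed level of 20 choroid plexus epithelium markers was 88.07 and 59.64 TPM in wild type, 12060 and 81.39 TPM in SOX11f/+ and 6927 and 379.8 TPM in SOX11f/f libraries. In SOX11f/f against wild type 19 of 19 tested markers had a higher level and 7 an unadjusted limma p under 0.05, where 8.35% of all genes were higher at such a p. However, 11 of the 19 had wild type means under 1 TPM and were tested only through floxed libraries. The marker not tested, Prlr, stood at 0.09 and 0.48 TPM in the wild type pair, 0.18 and 0.72 TPM in SOX11f/+ and 0.08 and 0.11 TPM in SOX11f/f libraries. One marker was at 0 in wild type replicate 2, Kcnj13, a potassium channel of that epithelium. Choroid plexus cells carry motile cilia themselves, and the part of their RNA in the members' levels of the 3 libraries with raised Ttr was not tested.

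In SOX11f/+ replicate 2 the choroid plexus sum of 81.39 TPM lay between those of the wild type libraries, with Enpp2 (34.25 TPM) and Tmem72 (12.89 TPM), which are high in wild type too, making up most of it. Of the 20 markers, 11 were above both wild type libraries there, 8 within their range and 1 below. Above were Ttr (4.44 TPM against 3.07 and 2.04), Folr1 (3.43 against 0.4 and 0.2), Calml4 (4.49 against 0.85 and 0.29), Msx1 (6.9 against 3.75 and 2.59), Otx2 (1.23 against 0.5 and 0.39), Steap1 (1.17 against 0.38 and 0.52), Kl (1.47 against 0.43 and 1.06), F5 (0.26 against 0.08 and 0.07), Kcne2 (0.3 against 0.22 and 0.05), Cldn2 (1.39 against 1.28 and 1.18) and Prlr. Within it were among others the transporter and channel genes Aqp1 (0.75 against 0.6 and 0.75), Clic6 (0.64 against 0.66 and 0.27) and Slc4a5 (0.03 against 0.14 and 0.02). The 7 higher regulators in the same library ranged from 1.36 times the wild type mean for Myb to 28.5 times for Mcidas, with Foxj1 at 8.6 times. With the 2 libraries of most Ttr left out of the fit, Foxj1 stood 2.75 above wild type in SOX11f/+ and 3.83 in SOX11f/f. Under the same setting Deup1 stood 1.83 and 2.52 above, Ccno 0.938 and 2, and Mcidas 1.04 and 1.36. Smaller differences were left for Rfx2 (0.586 and 0.946), Myb (0.366 and 0.641) and Gmnc (0.382 and 0.577). SOX11f/f replicate 2, with Ttr at 184.24 TPM, stays in this fit. This fit has 1 library per floxed genotype, each assumed to vary like the wild type pair.

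**Figure D4:**
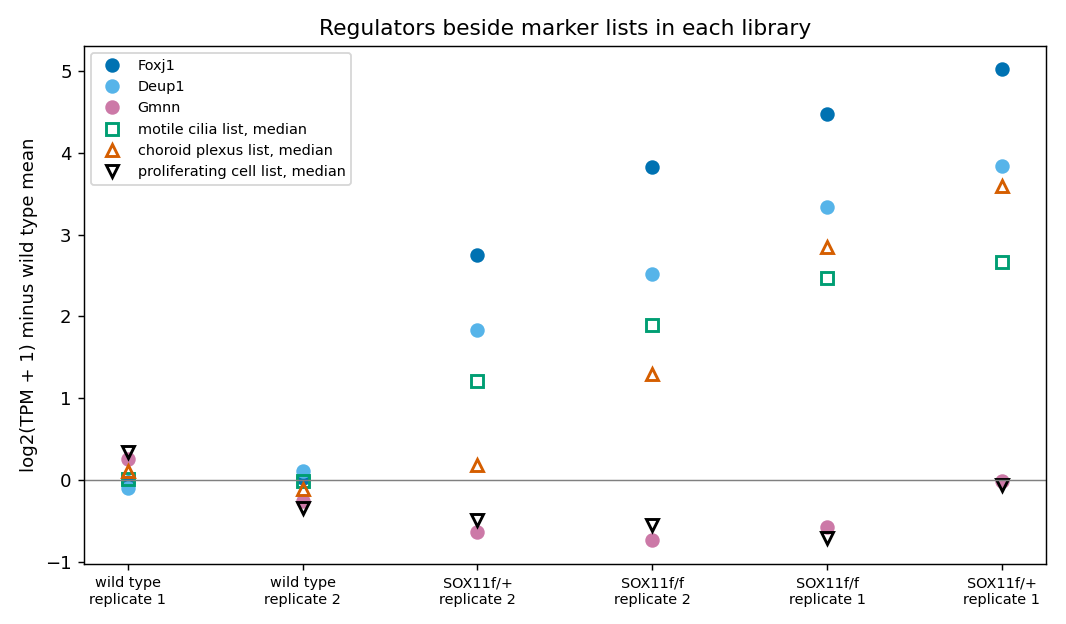
Value of each library minus the wild type mean on the log2(TPM + 1) scale (vertical axis), for 3 regulators and the medians of 3 marker lists, with libraries along the horizontal axis sorted by Foxj1 among the floxed ones. In SOX11f/+ replicate 2 the choroid plexus median is 0.18 and Foxj1 2.75, and the proliferating cell median and Gmnn both lie below 0 in that library and in both SOX11f/f libraries.

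Genes that work downstream of FOXJ1 and RFX also stood higher in floxed tissue. Of 62 tested genes of a fixed list of motile cilia genes, all 62 had higher levels than wild type in SOX11f/+ and in SOX11f/f, with medians of 1.93 and 2.18 beside -0.06 and -0.04 over all genes tested. Of the 62, 30 had wild type means under 1 TPM and were tested only through floxed libraries, so the count and medians lean toward higher values by selection; the other 32 were all above wild type in both comparisons. In each comparison 57 of 62 had an unadjusted limma p under 0.05 and 2 passed, Ccdc153, a coiled-coil gene of ependymal cells, and Tmem212, a membrane protein gene. Over all genes tested, 6.42% in SOX11f/+ and 8.35% in SOX11f/f were higher at such a p, and 0.0344% and 0.0413% passed. Ccdc153 rose from 0.59 and 0 TPM to 69.22 and 56.05 TPM in SOX11f/f (5.65, SE 0.29, limma adjusted p = 0.00178). Tmem212 rose from a listed 0 in each wild type library to 21.85 and 19.92 TPM in SOX11f/f (4.45, SE 0.29, limma adjusted p = 0.00647). Next by p were Dynlrb2, a dynein light chain (0.22 and 0.65 TPM in wild type, 80.75 and 48.2 TPM in SOX11f/f), Meig1 (2.55 and 2.28, then 43.14 and 29.6 TPM) and Tctex1d4 (listed at 0 in wild type, 11.6 and 11.95 TPM in SOX11f/f), none of which passed (limma adjusted p = 0.061 each). Spag6, on the list but not tested, stayed at or under 0.67 TPM and overlapped with wild type in both floxed genotypes. The list was written with earlier results of these data known.

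The genes most like Foxj1, Deup1 and Ccno in log2(TPM + 1) over the 6 libraries were genes of motile cilia. For Foxj1 they were the dynein arm gene Wdr63 (Pearson r = 0.9996), the radial spoke gene Rsph1 (0.9995) and Cfap65 (0.9995), among 11426 candidates. For Deup1 they were Cfap206 (0.9986), Iqcg (0.9982) and Ccdc40 (0.998), and for Ccno Wdr78 (0.999), Dyx1c1 (0.9981) and Ccdc39 (0.9974). Mcidas and Rfx2 shared Dync2li1, a light chain of the intraflagellar dynein (0.9979 and 0.9986), joined by Vit and Mok for Mcidas and by Tmem107 and Calml4 for Rfx2. Myb was nearest to Dnaaf5, Mycbp and Tmed3 (0.9941 to 0.9961) and Gmnc to Rplp2, Ctsd and Perp (0.9924 to 0.9964). Gmnn was nearest to Rcbtb2, Zfp141 and Trim59 (0.9961 to 0.9976), Rfx3 to Sf3a1, Pick1 and Gon4l (0.9939 to 0.995), and Rfx4 to Frmd6, Tgfbr2 and Copz2 (0.9837 to 0.9914). With 6 libraries in 3 genotypes these values describe likeness only.

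Genes for cilia of all cell types differed less. Of 30 intraflagellar transport genes, 24 had higher and 6 lower levels in SOX11f/+ and 22 higher and 8 lower in SOX11f/f, with medians of 0.18 and 0.13, and none passed. Dync2li1 had the smallest p, at 20.63 and 19.93 TPM in wild type, against 35.28 and 31.13 TPM in SOX11f/f (limma adjusted p = 0.171). Next were Ift80 (11.66 and 9.2, then 17.83 and 16.47 TPM), Wdr60, Ift20 and Ift172.

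Centriole assembly genes, most of them used by all dividing cells, had no common direction. Of 38 tested genes for centriole assembly, 13 had higher and 25 lower levels in SOX11f/+ and 12 higher and 26 lower in SOX11f/f, with medians of -0.07 and -0.17 (all genes tested -0.06 and -0.04), and none passed. Of the 38, 1 (Cdc20b) had a wild type mean under 1 TPM and was tested only through floxed libraries. Ccdc78, on the list but not tested, stood at 0.05 TPM in each wild type library. It lay between 0.5 and 1.91 TPM in floxed libraries, in the order of libraries of the 7 regulators. Among the tested genes, those with the smallest p went both ways. Cetn2, a centrin of centrioles and basal bodies, stood at 64.05 and 67 TPM in the wild type pair, against 98.51 and 88.31 TPM in SOX11f/f (limma adjusted p = 0.126). Cetn4, another centrin, stood at 4.1 and 3.81, then 11.65 and 12.61 TPM (limma adjusted p = 0.165). The procentriole genes Sass6 (13.59 and 10.06, then 6.71 and 6.17 TPM) and Cenpj (10.66 and 8.91, then 5.5 and 5.66 TPM) were lower (limma adjusted p = 0.136 and 0.137), as was Ninl (0.171).

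A list of geminin partners and of genes of replication licensing stood mostly below wild type. Of 25 tested, 24 had lower levels in SOX11f/+ and in SOX11f/f, with medians of -0.26 and -0.32, and none passed. Mcm7, a helicase subunit at replication forks, stood at 101.07 and 73.16 TPM in the wild type pair, against 52.64 and 56.35 TPM in SOX11f/f (limma adjusted p = 0.13), and Gins1 at 37.12 and 24.96, then 16 and 17.55 TPM (0.169). The chromatin remodeller Smarca4 stood at 125.28 and 104.03, then 86.6 and 77.4 TPM (0.139), and the sliding clamp Pcna at 217.79 and 191.18, then 161.46 and 170.53 TPM (0.201). The exception was Six3, a homeobox gene of the forebrain that also binds geminin, at 0.29 and 0.43, then 1.59 and 2.13 TPM (0.264). Its wild type mean was under 1 TPM, so it was tested only through floxed libraries.

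**Figure D5:**
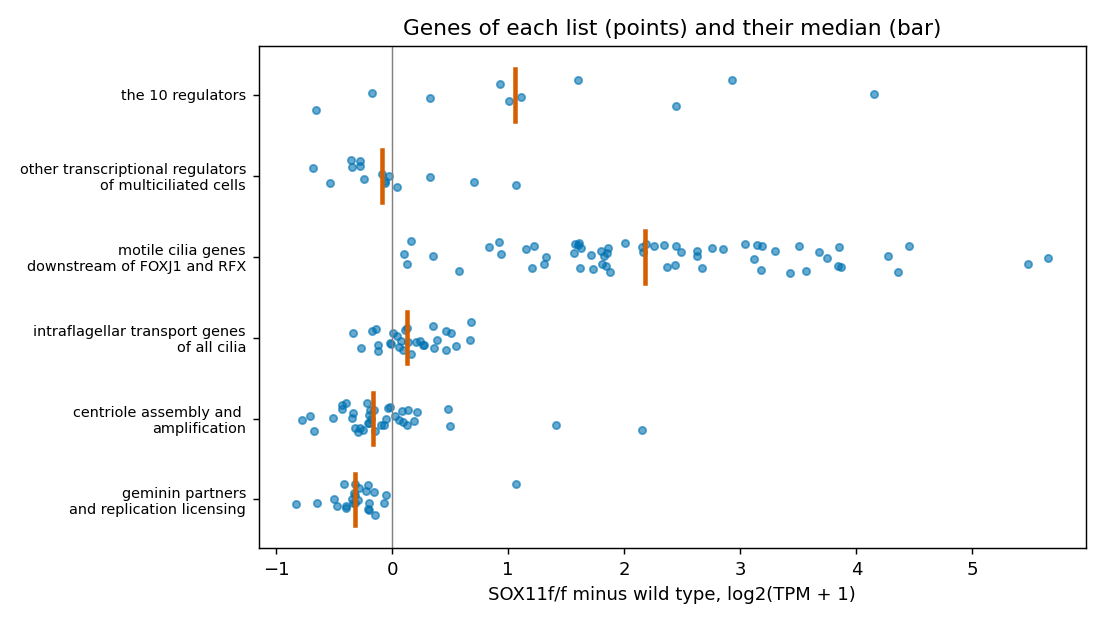
Difference between SOX11f/f and wild type in log2(TPM + 1) for each tested gene (points) of the 10 regulators and 5 fixed lists, with the median of each list (bars). The motile cilia median is 2.18 with all 62 points above 0, while the medians of intraflagellar transport, centriole and licensing genes are 0.13, -0.17 and -0.32.

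Most other transcriptional regulators linked to the pathway were not higher in floxed tissue. Of 15 tested, 3 had higher and 12 lower levels in SOX11f/+ and 4 higher and 11 lower in SOX11f/f, with medians of -0.21 and -0.09, and none passed. The E2F partners of multicilin were present throughout, E2f4 from 23.18 to 30.29 TPM and E2f5 from 20.62 to 24.13 TPM. Both SOX11f/+ libraries lay below wild type for E2f4. Tfdp1, a partner of both, stood at 118.66 and 100.95 TPM in the wild type pair. It was lower in each floxed library, between 86.37 and 96.94 TPM (limma adjusted p = 0.433 in SOX11f/+ and 0.26 in SOX11f/f). Trp73, the gene of p73, which acts upstream of Foxj1 and is also abundant in Cajal-Retzius neurons, stood at 54.34 and 27.67 TPM in the wild type pair, 33.28 and 25.17 TPM in SOX11f/+ and 28.63 and 32.34 TPM in SOX11f/f libraries, which overlapped. Foxn4, a forkhead gene of multiciliated cells in frog skin, stood at 1.27 and 0.45 TPM in the wild type pair, against values between 1.32 and 3.49 TPM in floxed libraries, in the order of libraries of the 7 regulators (differences 0.83 and 0.71, limma adjusted p = 0.407 and 0.387). Six3 was also above wild type in each floxed library (differences 0.76 and 1.07, limma adjusted p = 0.46 and 0.264). In SOX11f/+ replicate 2 it was only just above, at 0.49 TPM against 0.29 and 0.43 TPM in wild type. Foxn4 and Six3 had wild type means under 1 TPM and were tested only through floxed libraries. Of the other 13 tested genes, 1 was above wild type in SOX11f/+ and 2 in SOX11f/f. Nfix, a nuclear factor I gene of neural stem cells, stood at 1045.36 and 779.17 TPM in the wild type pair, against values between 541.36 and 616.08 TPM in floxed libraries (limma adjusted p = 0.239 in SOX11f/+ and 0.11 in SOX11f/f), and Nfia at 67.71 and 54.59 and between 40.76 and 48.2 TPM. Rfx5, an RFX factor of immune genes, was at 17.13 and 14.25 TPM in wild type, 10.16 and 10.57 TPM in SOX11f/+ and 14.72 and 17.75 TPM in SOX11f/f libraries. Rfx7 stood at 30.13 and 22.55 TPM in the wild type pair and between 21.35 and 22.38 TPM in floxed libraries. Zbtb46 stood at 17.66 and 14.13 TPM in the wild type pair and between 9.48 and 12.94 TPM in floxed libraries. Over all 6 libraries Tfdp2 lay between 17.43 and 26.42 TPM and Pax6 between 20.07 and 28.87 TPM. Foxa2 and Grhl2 stayed at or under 0.42 TPM and were not tested.

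Markers of other cell types also differed between the genotypes. The 15 ependymal markers, of which 6 are also in the motile cilia list, had medians of 2.77 in SOX11f/+ and 2.85 in SOX11f/f, with 13 and 14 above wild type, and the same 2 genes passed, Ccdc153 and Tmem212. Of the 15, 5 had wild type means under 1 TPM and were tested only through floxed libraries, among them Ccdc153, Tmem212 and Hdc. The medians and counts therefore lean toward higher values by selection. Of the other 10, 8 were above wild type in SOX11f/+ and 9 in SOX11f/f. Among the 9 not shared with the motile cilia list, Hdc, the histamine-forming enzyme, stood at 0.66 and 0.25 TPM in the wild type pair, against 19.16 and 12.22 TPM in SOX11f/f, and Rarres2, the gene of chemerin, at 6.24 and 2.88, then 23.62 and 27.77 TPM (limma adjusted p = 0.061 each). Others of the 9 did not stand higher: Cd24a, a surface protein gene also of immature neurons, was at 838.35 and 861.48 TPM in wild type but 514.79 and 298.77 TPM in SOX11f/f (-1.11, limma adjusted p = 0.109), and Nnat, a gene of developing brain, differed by 0.00376. The summed level of 14 microglia genes was 257.8 and 311.1 TPM in wild type, 633.3 and 414.2 TPM in SOX11f/+ and 504.4 and 515.2 TPM in SOX11f/f libraries, with all 14 above wild type in both comparisons and none at 0 in any library. Astrocyte markers had medians of 0.59 and 0.77 with 10 of 10 above wild type, and neuron markers medians of -0.17 and -0.27 with 12 and 11 of 15 below. Radial glia markers had medians of 0.10 and 0.16, with 8 and 9 of 15 above wild type. The part of these cell types in the members' levels was not tested.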

How the data were processed

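RNA from 6 libraries was measured as TPM values that the authors deposited in 1 table, with 35274 rows named by Ensembl identifier and symbol. Per the labels' design text, poly(A) RNA was made into TruSeq libraries, sequenced in 150-nt paired-end mode and aligned to mm10 with TopHat 2.0.11, with analysis in Cufflinks 2.2.1 on RefSeq. FastQC and RSEM, and both mm10 and GRCm38, appear per the submitters' processing notes. Which annotation release was used, and how strand was handled, is not given in the sources used here. TPM values share a fixed total per library, so 1 very abundant transcript lowers the others.

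Groups came from the sample titles. log2(TPM + 1) of 14518 genes averaging 1 TPM or more entered limma 3.58.1 in R 4.3.3 (a term per genotype, all 6 libraries, 3 residual degrees of freedom, eBayes with trend, Benjamini-Hochberg threshold of 0.05). The method was tested on simulated data in which each gene had the same spread in every genotype. Changes were added only to SOX11f/f, in genes averaging over 5 TPM. Gmnc, Mcidas and Ccno, with lower means, and genes whose spread differed between genotypes lie outside that setting. Gene positions are those of GENCODE vM21 (GRCm38), found by identifier for 34924 of 35274 rows, and promoters from the RefSeq table on GRCm38.p6, in which the last 30 bases of 9 of 11 member windows matched a transcript forward and 0 in reverse. The windows that matched neither way were those of Deup1, including the one printed. Gene lists (13) and members were chosen with earlier results of these data known. Named genes were all members, all other regulators of the list (1 of them is not reported here), up to 5 genes per other pathway list by smallest p in SOX11f/f against wild type, the 3 most alike genes per member with a mean of at least 5 TPM (unnamed gene models and pseudogenes skipped), and genes within 100000 bases of Ccno and Mcidas. Genes of the pathway lists that were not tested are named as well. Marker genes of the choroid plexus and other cell types beside these were picked after their values were seen. The 15 alternatives were other pseudocounts, filters, scaling and moderation, the 2 genotypes alone, the replicate block and left-out libraries.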

Additional observations from a re-analysis of the deposited data

How the results depend on the processing

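Against wild type, the 10 regulators kept their direction under every alternative that could be run, with 8 values for SOX11f/+ and 18 for SOX11f/f newly past the threshold and 139 and 129 on the same side of it. With the mean raised to 5 TPM, Gmnc, Mcidas and Ccno were not tested. The number of genes past the threshold was less stable. For SOX11f/+ against wild type it was 5, and 49 with a pseudocount of 0.1, 1 with no filter, 9 with the replicate block, 152 without the 2 libraries with the most Ttr, and 3 to 397 when single libraries were left out. For SOX11f/f against wild type it was 6, and 149 with a pseudocount of 0.1, 3 with no filter, 393 with these genotypes alone, 283 with the replicate block, 491 without the 2 libraries with the most Ttr, and 3 to 397 when single libraries were left out. For SOX11f/f against SOX11f/+ it was 2, and 1 with no filter and with eBayes without trend, 12 without the 2 libraries with the most Ttr, and 1 to 5 when single libraries were left out. Leaving out libraries leaves fewer samples, yet some of these counts were higher all the same. The cause was not tested.

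Between the floxed genotypes, the signs of 9 members depended on single libraries, while Gmnn kept its sign (-0.65 to -0.019). Leaving out one library gave -0.99 to 1.51 for Ccno, -0.91 to 1.1 for Deup1, -0.87 to 1.40 for Foxj1, -1.11 to 0.63 for Gmnc, -0.79 to 0.56 for Mcidas, -0.77 to 0.56 for Myb, -0.50 to 0.52 for Rfx2, -0.015 to 0.078 for Rfx3 and -0.10 to 0.23 for Rfx4. Without the 2 libraries with the most Ttr, Gmnc (0.20), Mcidas (0.32), Myb (0.28) and Rfx3 (-0.000442) changed sign, and with TMM rescaling Rfx2 (-0.017) and Rfx3 (-0.00033). Replicate numbers name libraries only, and the within-genotype differences of replicates correlated across genes at 0.21 (wild type and SOX11f/+), -0.09 (wild type and SOX11f/f) and 0.35 (both floxed genotypes). With the replicate block, Foxj1 in SOX11f/f against wild type was the only one of the members to pass (limma adjusted p = 0.038). TPM gives no depth, so counting error of Gmnc and Mcidas near 0 in wild type is unknown.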
